A study of Mus musculus with 8 samples.

Results

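The genes described here are the glutathione transferases, glutathione peroxidases and peroxiredoxins, the enzymes that use glutathione or a reactive cysteine to clear electrophiles and peroxides. They were chosen by name, as the genes whose single annotated symbol was Gsta, Gstm, Gsto, Gstp, Gstt, Gstk, Gstz, Mgst, Gpx or Prdx followed by a number, with the probe set of the highest mean kept for each gene. That gave 32 of 18820 genes tested: 2 Gsta, 6 Gstm, 2 Gsto, 2 Gstp, 4 Gstt, 1 Gstk, 3 Mgst, 8 Gpx and 4 Prdx genes, and no Gstz gene. Gsta1, Gsta2, Gstm5, Gstp2 and Gstz1 shared their probe sets with other genes and were not used, and Prdx5 and Prdx6 were not named in the annotation used.

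Expression arrays were run on epididymal white fat, a visceral depot, from male C57BL/6 mice. The design had 4 wild-type arrays and 4 of transgenic mice that overexpress human IL37, which encodes interleukin-37, an anti-inflammatory cytokine. All mice ate a low-fat diet (10% of energy as fat) for 2 weeks and then a high-fat diet (45%) for 16 weeks, and no lean group was analysed here. The wild-type mice were bought from a supplier and the transgenic line had been described before. The sources used here do not give the promoter of the transgene, the ages, whether the groups were littermates or whether each array was a separate mouse. The p-values therefore reflect the spread between arrays, which may be technical.

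Glutathione is a small peptide whose thiol reduces peroxides and takes up reactive molecules. Glutathione peroxidases, many of them selenoproteins, reduce hydrogen peroxide and lipid peroxides with it, and peroxiredoxins do the same with thioredoxin as the partner. Glutathione transferases couple glutathione to electrophiles such as the aldehydes that arise when lipids oxidise, and in fat cells Gsta4 is known for clearing such aldehydes. Mgst proteins are membrane transferases of a separate fold that also includes enzymes of prostaglandin and leukotriene synthesis.

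Values are log2 expression levels, so that 1 unit is a doubling, and differences are transgenic minus wild type. The 25th percentile of gene means over all arrays was 4.49 and the median gene 6.74. Gpx2, Gpx5 and Gpx6 lay below the 25th percentile, and 26 of the 32 genes lay at or above the median gene. Array medians ran from 5.97 to 6.04. Of 11 measured adipocyte genes 1, Adipoq, was higher past the threshold, where 2.07% of all genes were. These adipocyte markers were abundant, as the tissue label requires. Their mean was 12.18 to 12.29 in wild-type and 12.31 to 12.38 in transgenic arrays, with no overlap. By contrast, 9 of 11 measured markers of epididymal epithelium lay below the 25th percentile.

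3 arrays stood apart in genes of other tissues, and several members went with them. Transgenic replicate 4 had a mean of 8.56 over 11 measured germ cell genes (the sperm nuclear protein gene Tnp2 was at 9.45), where the other 7 arrays had 4.43 to 5.08. Wild-type replicates 3 and 4 had means of 6.69 and 6.04 over 10 genes of Pax8-positive duct and ciliated epithelium, where the other 6 arrays had 4.63 to 5.05. Not every gene followed its list. Among the germ cell genes, Sycp3 was at 9.38 to 9.98 in wild-type arrays and at 9.44 in transgenic replicate 4. Among the duct and cilia genes, Pax2 stayed between 5.01 and 5.39 in all arrays. Tekt1 was at 6.60 in wild-type replicate 4 and 6.66 in wild-type replicate 2, and Rsph1 was highest in transgenic replicate 4 (7.08). Both marker lists were written after the values were seen. The mean of 12 macrophage markers was 9.05 to 9.95 in wild-type and 8.75 to 9.16 in transgenic arrays, with wild-type replicate 3 the lowest wild-type array. By limma 1 of the 12 rose and 3 fell, where 2.07% of all genes rose and 1.27% fell. No macrophage marker lay below the 25th percentile. In bulk tissue, fewer cells of a type and less RNA per cell cannot be told apart, and the part of these markers in the members' differences was not tested.

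Transgenic fat had more RNA for Mgst3, Gstm4, Gstk1 and Gpx1, by 1.19-fold to 1.53-fold, and no member was lower past the threshold. These 4 of 32 genes (12.5%) rose by limma with Benjamini-Hochberg adjustment over all genes (adjusted p at most 0.05), where 2.07% of all genes rose and 1.27% fell. Among genes at or above the median gene, 4 of 26 members rose, against 3.51% of all such genes. At an unadjusted p of 0.05, 13 members were higher and 0 lower, where the shares of all genes were 11.2% and 9.42%. The groups did not overlap for 9 members, all of them higher in transgenic fat, a pattern that 8.24% of all genes had in that direction, 5.73% in the other and 14% in either. In all 28 of 32 differences were above 0, against 55.3% of all genes, with a median of 0.20 log2 units against 0.02.

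The number of calls moved with single arrays, for the members and for all genes. The number of members that rose was 1, 1, 8 and 0 without wild-type replicate 1, 2, 3 and 4, where 0.584%, 0.855%, 6.31% and 0.436% of all genes passed in either direction, against 3.34% with all arrays. It was 1, 0, 2 and 2 without transgenic replicate 1, 2, 3 and 4, where 1.11%, 0.723%, 2.25% and 1.23% of all genes passed. The size of the 4 differences moved little in these removals. The array names hold a well-like code, taken here as plate row and column. Row F held only wild-type and row H only transgenic arrays, so row and group are largely confounded. A difference with the row as a block is therefore the row G difference and no separate check. With the row or the column as a block no member passed and 0.372% or 0.383% of all genes did. Values within a plate position rest on few arrays: column 5 on 1 array of each group, column 7 on 2 wild-type and 1 transgenic, column 9 on 1 wild-type and 2 transgenic, and row G, the 1 row with both groups, on transgenic replicate 1 against wild-type replicates 3 and 4, the arrays high in duct and cilia genes. They are given below as descriptions.

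**Figure D1:**
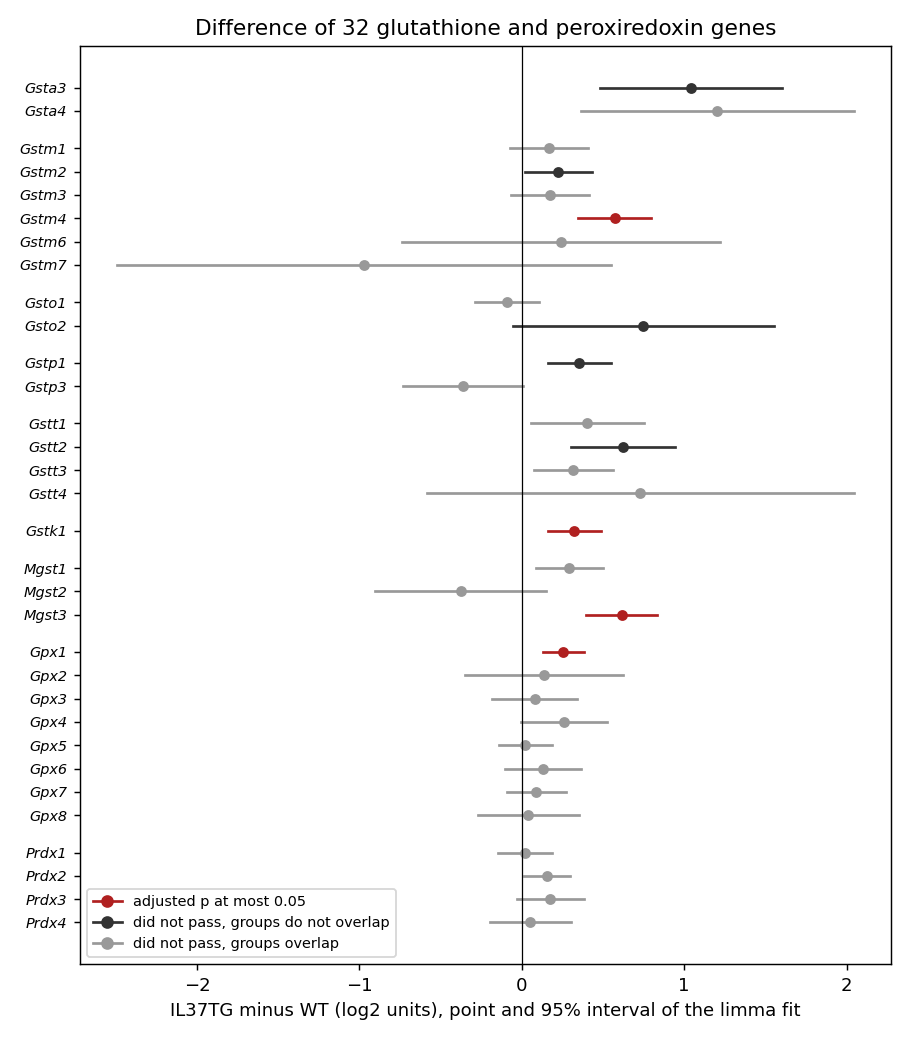
Difference between transgenic and wild-type fat in log2 units for each of the 32 genes, by subfamily, with points for the estimate and lines for the 95% interval of the limma fit. Red marks Mgst3, Gstm4, Gstk1 and Gpx1, which passed the threshold, black marks 5 further genes whose groups did not overlap, and 28 of 32 points lie to the right of 0.

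Mgst3, a membrane-bound transferase that also reduces lipid peroxides, had levels of 9.47, 9.12, 9.45 and 9.20 in the wild-type arrays and 9.87, 9.90, 10.06 and 9.87 in the transgenic arrays. Every transgenic array lay above every wild-type array. The gene rose by 0.61 log2 units or 1.53-fold (9.31 ± 0.17 against 9.92 ± 0.09, SD, n = 4 per group; SE 0.095; limma adjusted p = 0.0198). Within plate columns 5, 7 and 9 the difference was 0.45, 0.73 and 0.75, and in row G it was 0.55. The call was lost on removal of any of 4 arrays (wild-type replicates 2 and 4, transgenic replicates 1 and 2), with an adjusted p of up to 0.0728, while the difference stayed at 0.55 to 0.67.

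The other Mgst genes did not pass. Mgst1, the microsomal transferase abundant in liver and fat, had levels of 11.28, 11.21, 11.42 and 11.27 in wild-type and 11.41, 11.78, 11.50 and 11.66 in transgenic fat. The groups met at their edges, with wild-type replicate 3 just above transgenic replicate 1. The difference was 0.29 (95% interval 0.09 to 0.50, limma adjusted p = 0.118). Mgst2, a leukotriene C4-forming enzyme, differed by -0.38 (95% interval -0.90 to 0.15, limma adjusted p = 0.397), with both groups spread between 7.02 and 8.21.

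Gstm4, a transferase of the mu class, read 9.17, 9.52, 9.43 and 9.32 in wild-type fat and 10.04, 10.00, 9.97 and 9.72 in transgenic fat. The groups were apart, with transgenic replicate 4 nearest to the wild-type arrays. Gstm4 rose by 0.57 log2 units or 1.49-fold (9.36 ± 0.15 against 9.93 ± 0.14, SD, n = 4; SE 0.10; limma adjusted p = 0.0251). Its difference within columns 5, 7 and 9 was 0.57, 0.72 and 0.37, and 0.66 in row G. Removal of any of 5 arrays (wild-type replicates 1 and 4, transgenic replicates 1, 2 and 3) ended the call, with an adjusted p of up to 0.0932, while the difference stayed at 0.51 to 0.64.

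The remaining mu-class genes, which lie with Gstm4 in 1 cluster of similar sequences whose probes may read more than 1 member, did not pass. Gstm1, a major transferase of this class, had 11.29, 11.78, 11.53 and 11.46 in wild-type and 11.67, 11.58, 11.78 and 11.71 in transgenic arrays. 3 of the 4 transgenic arrays lay inside the wild-type range, and the difference was 0.17 (95% interval -0.07 to 0.41, limma adjusted p = 0.403). Gstm2 was apart in the 2 groups, with a wild-type range of 10.43 to 10.83 and a transgenic range of 10.86 to 10.96, but differed by 0.23 with limma adjusted p = 0.201. Gstm3 differed by 0.17 (adjusted p = 0.397 by limma).

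Gstm7 and Gstm6 were uneven among the wild-type arrays. Gstm7 had levels of 7.53, 8.00, 10.86 and 9.68 in wild-type arrays and 8.13, 7.82, 8.26 and 7.97 in transgenic arrays. Its 2 high values were wild-type replicates 3 and 4, the arrays with duct and cilia genes, and the other 6 arrays lay within 1 unit of each other. The difference of -0.97 (95% interval -2.49 to 0.55, limma adjusted p = 0.447) became 0.28 without those arrays, an alternative added after the values were seen. Gstm6 had 5.81, 7.02, 8.12 and 7.50 in wild-type and 7.59, 7.28, 7.26 and 7.27 in transgenic fat, a wild-type SD of 0.98 against 0.16. It differed by 0.24 (limma adjusted p = 0.791), and by -0.19 without wild-type replicate 1. Gstm7 and Gstm6 were singled out after their values were seen, and the part of the duct and cilia genes in it was not tested.

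**Figure D2:**
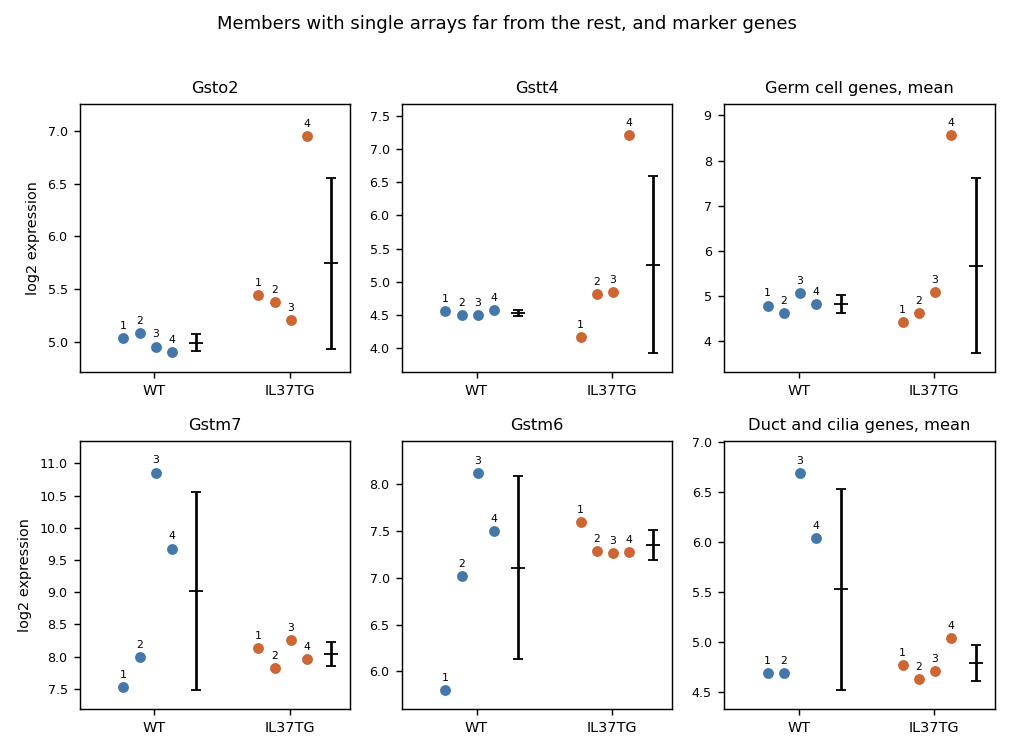
Log2 expression in each array (numbers are replicates) of 4 members and the mean of 2 marker lists, with the group mean and SD as bars. Gsto2, Gstt4 and the germ cell genes are high in transgenic replicate 4 alone, and Gstm7 and the duct and cilia genes are high in wild-type replicates 3 and 4.

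Gstk1, the kappa-class transferase of mitochondria and peroxisomes, read 10.99, 10.97, 11.14 and 11.00 in wild-type and 11.39, 11.47, 11.29 and 11.24 in transgenic fat. Wild-type replicate 3 stood above its group and still below every transgenic array. Gstk1 rose by 0.32 log2 units or 1.25-fold (11.02 ± 0.08 against 11.35 ± 0.10, SD, n = 4; SE 0.07; limma adjusted p = 0.049). The difference was 0.33, 0.29 and 0.35 within columns 5, 7 and 9 and 0.33 in row G. The call held without wild-type replicate 3, a removal that was bound to widen the difference, and was lost on removal of any of the other 7 arrays, with an adjusted p of up to 0.141 and a difference of 0.28 to 0.36 over all removals.

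The 2 alpha-class genes had the largest positive differences and did not pass. Gsta3 had levels of 8.67, 8.21, 9.43 and 8.74 in wild-type arrays and 9.60, 9.88, 9.62 and 10.13 in transgenic arrays. The groups did not overlap, and wild-type replicate 3 was again nearest to the transgenic arrays. The difference was 1.04 log2 units or 2.06-fold (SE 0.24, 95% interval 0.48 to 1.60, limma adjusted p = 0.0612), 0.46, 0.91 and 1.65 within columns 5, 7 and 9, and 0.51 in row G.

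Gsta4, the transferase of lipid aldehydes, had 6.82, 5.80, 7.77 and 6.82 in wild-type and 7.97, 8.20, 7.62 and 8.22 in transgenic fat. Wild-type replicate 3 lay above transgenic replicate 3, and wild-type replicate 2 was about 1 unit below its group. The difference was 1.20 log2 units or 2.30-fold (95% interval 0.36 to 2.04, limma adjusted p = 0.115), 0.44, 0.80 and 2.30 within columns and 0.68 in row G. Without wild-type replicate 3 both genes passed (Gsta3 at 1.26, limma adjusted p = 0.013; Gsta4 at 1.52, limma adjusted p = 0.0246), a widening fixed by that choice. Gsta4 was named outside the rule for its size.

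**Figure D3:**
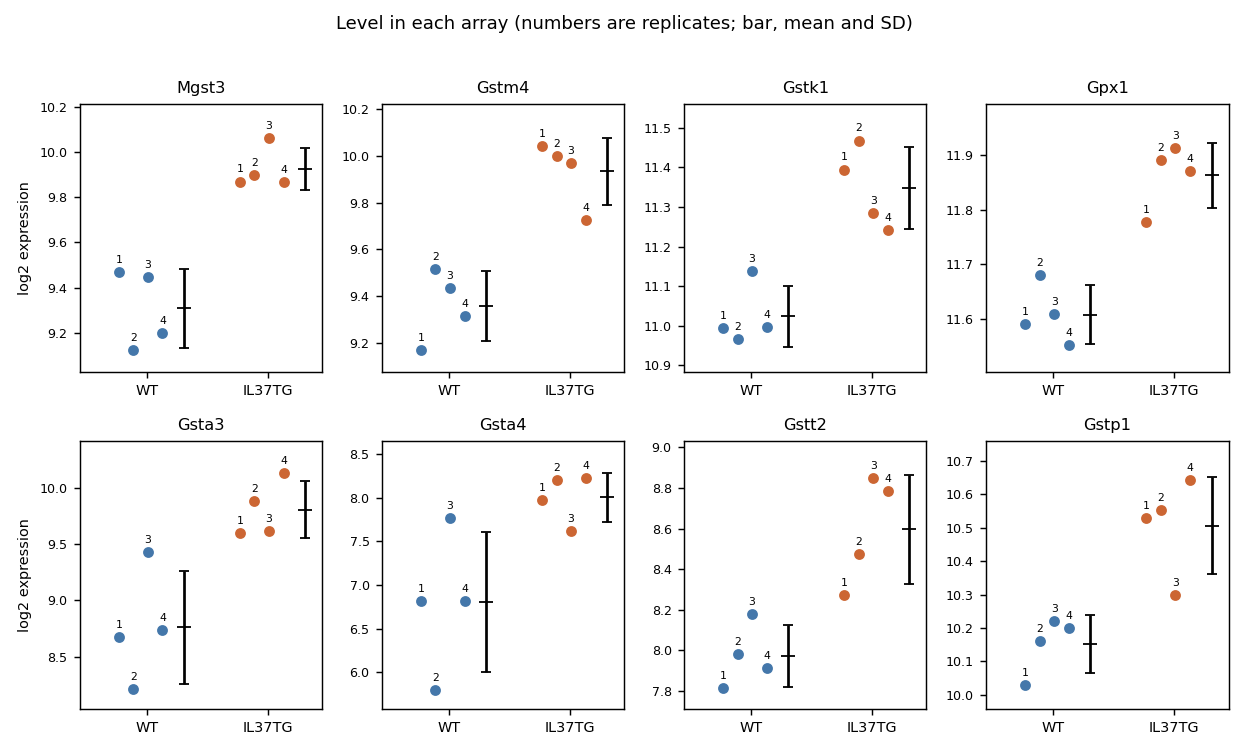
Log2 expression of 8 members in each array (numbers are replicates), with group mean and SD. The upper row holds the 4 genes that passed, each with its groups apart. In the lower row Gsta3, Gstt2 and Gstp1 had groups apart without passing, and Gsta4 overlapped through wild-type replicate 3 at 7.77 and transgenic replicate 3 at 7.62.

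The pi-class gene Gstp1, also known for binding stress kinases, had 10.03, 10.16, 10.22 and 10.20 in wild-type fat and 10.53, 10.55, 10.30 and 10.64 in transgenic fat. Transgenic replicate 3 lay close to the wild-type arrays but above them. The difference was 0.35 or 1.28-fold (95% interval 0.16 to 0.55, limma adjusted p = 0.0651). Gstp3, a dim gene, differed by -0.36 (95% interval -0.73 to 0.01, limma adjusted p = 0.25).

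Among the theta-class genes, Gstt2 read 7.81, 7.98, 8.18 and 7.91 in wild-type and 8.27, 8.47, 8.85 and 8.79 in transgenic arrays. The groups were apart by a narrow gap, between wild-type replicate 3 and transgenic replicate 1. The difference was 0.62 or 1.54-fold (95% interval 0.30 to 0.95, limma adjusted p = 0.0538), and 0.23 in row G against 0.30, 0.99 and 0.55 within columns. Gstt1 had 9.17, 8.74, 9.53 and 8.98 in wild-type fat and a narrow 9.44, 9.59, 9.47 and 9.54 in transgenic fat, a difference of 0.40 (95% interval 0.06 to 0.75, limma adjusted p = 0.182). Gstt3 differed by 0.32 (limma adjusted p = 0.141).

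Gstt4 and the omega-class gene Gsto2, both dim in fat, were high in 1 array. Gstt4 had 4.56, 4.49, 4.50 and 4.57 in wild-type and 4.17, 4.81, 4.84 and 7.21 in transgenic arrays. Gsto2, a dehydroascorbate reductase, had 5.04, 5.09, 4.96 and 4.90 in wild-type and 5.44, 5.38, 5.21 and 6.95 in transgenic arrays. In both genes the high value was transgenic replicate 4, the array with the germ cell genes, whose part in these values was not tested. The Gstt4 difference of 0.73 (limma adjusted p = 0.508) became 0.08 without that array, and the Gsto2 difference of 0.75 (limma adjusted p = 0.274) became 0.35 (limma adjusted p = 0.0881) with the groups still apart. Gstt4 was singled out after its values were seen. Gsto1, the abundant omega-class gene, had 9.39, 9.50, 9.56 and 9.51 in wild-type and 9.37, 9.45, 9.57 and 9.21 in transgenic fat, and differed by -0.09 (95% interval -0.29 to 0.10, limma adjusted p = 0.583).

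Of the 8 glutathione peroxidases, Gpx1 alone passed, where 2.07% of all genes rose by limma. Gpx1, the ubiquitous cytosolic selenoenzyme, had 11.59, 11.68, 11.61 and 11.55 in wild-type and 11.78, 11.89, 11.91 and 11.87 in transgenic fat. The groups were apart, with wild-type replicate 2 and transgenic replicate 1 facing each other. Gpx1 rose by 0.26 log2 units or 1.19-fold (11.61 ± 0.05 against 11.86 ± 0.06, SD, n = 4; SE 0.06; limma adjusted p = 0.049). Within columns 5, 7 and 9 it differed by 0.28, 0.34 and 0.14, and by 0.20 in row G. The call was lost on removal of any of the 8 arrays, with an adjusted p from 0.0587 to 0.147, while the difference stayed at 0.24 to 0.28.

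Gpx4, which reduces peroxides within membranes and guards against ferroptosis, differed by as much as Gpx1 but with more spread. It ranged from 10.74 to 11.07 in wild-type and from 10.86 to 11.31 in transgenic arrays, a difference of 0.26 (95% interval -0.004 to 0.52, limma adjusted p = 0.25). Gpx3, the secreted plasma enzyme that fat also makes, ranged from 10.85 to 11.35 in wild-type and from 11.00 to 11.32 in transgenic arrays, a difference of 0.08 (95% interval -0.18 to 0.34). The reticulum enzymes Gpx7 and Gpx8 differed by 0.09 and 0.04 (limma adjusted p = 0.563 and 0.895). Gpx5, known from the epididymis, had means of 3.48 and 3.50, and Gpx2 and Gpx6 also lay below the 25th percentile, at 3.84 and 3.98 and at 3.40 and 3.53.

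No peroxiredoxin passed by limma, and 1 of 4, Prdx2, was higher at an unadjusted p of 0.05. Of all genes, 2.07% rose by limma and 11.2% were higher unadjusted, so that few calls would stand in any list of this length. Prdx2, a cytosolic enzyme abundant in red cells, had 10.68, 10.52, 10.60 and 10.50 in wild-type and 10.78, 10.79, 10.71 and 10.65 in transgenic fat. Its groups overlapped at transgenic replicate 4, and the difference was 0.16 (95% interval 0.01 to 0.30, limma adjusted p = 0.207). Prdx1, its ubiquitous relative, had 11.25, 11.37, 11.31 and 11.30 in wild-type and 11.27, 11.52, 11.25 and 11.27 in transgenic fat, with 3 transgenic arrays inside the wild-type range. The Prdx1 difference was 0.02 with a 95% interval of -0.15 to 0.19. Mitochondrial Prdx3 and the reticulum enzyme Prdx4 differed by 0.18 and 0.05 (limma adjusted p = 0.31 and 0.826).

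Across the members, wild-type replicate 3 was the wild-type array with the highest level for 15 of 32 genes, among them Gsta3, Gsta4, Gstt1, Gstt2, Gstt3, Gstk1, Mgst1, Gpx3 and Gpx4. The same array had the highest adipocyte mean and the lowest macrophage mean of its group. In transgenic fat the highest levels were spread over replicate 2 (12 genes), replicate 3 (12), replicate 4 (6) and replicate 1 (2). By class, all differences were above 0 in the 2 Gsta, 4 Gstt, 8 Gpx and 4 Prdx genes and in Gstk1, and 1 gene each of the Gstm, Gsto, Gstp and Mgst classes was below 0. The median difference was 1.12 for Gsta, 0.51 for Gstt (with Gstt4, high in 1 array), 0.33 for Gsto (with Gsto2, high in the same array), 0.29 for Mgst, 0.20 for Gstm, 0.11 for Gpx, 0.10 for Prdx and -0.004 for Gstp. These medians describe the lists and were not tested against each other.

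**Figure D4:**
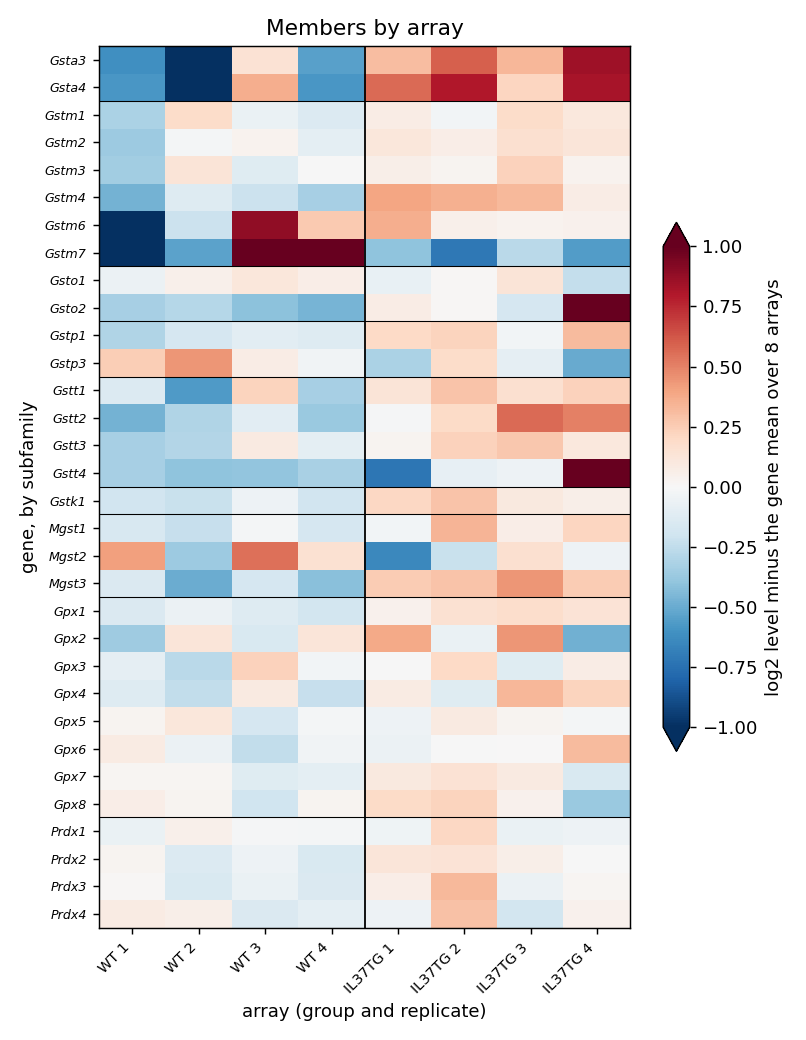
Log2 level of each member in each array minus the gene mean over the 8 arrays, with genes in rows by subfamily and arrays in columns; colours are capped at 1 unit. Warm colours fill the 4 transgenic columns of Gsta3, Gsta4, Gstm4, Gstk1, Mgst3 and Gpx1, Mgst2 and Gstm7 run the other way in most columns, and the wild-type replicate 3 column is warmer than its neighbours in the Gsta rows.

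Promoter sequence is shown for 3 of the genes that rose, Mgst3, Gstk1 and Gpx1, because these stretches met no gene model; those of Gstm4 lie within the span of Gstm4 itself and are not printed. Each is the 250 bases before a RefSeq start (GRCm38.p6), printed in the direction of the gene, and capitals mark the GC box GGGCGG and the CCAAT box CCAAT on either strand, which are common promoter elements, and the antioxidant response element core TGACNNNGC, to which NRF2 binds. The sequences come from chr1:167393842-167394091, minus strand, chr6:42245685-42245934, plus strand, and chr9:108338830-108339079, plus strand.
Mgst3: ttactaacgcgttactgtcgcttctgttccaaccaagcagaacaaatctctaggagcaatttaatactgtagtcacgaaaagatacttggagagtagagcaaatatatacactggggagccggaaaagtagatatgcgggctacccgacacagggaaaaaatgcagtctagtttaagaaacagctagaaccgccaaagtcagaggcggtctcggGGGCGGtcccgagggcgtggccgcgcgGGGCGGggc
Gstk1: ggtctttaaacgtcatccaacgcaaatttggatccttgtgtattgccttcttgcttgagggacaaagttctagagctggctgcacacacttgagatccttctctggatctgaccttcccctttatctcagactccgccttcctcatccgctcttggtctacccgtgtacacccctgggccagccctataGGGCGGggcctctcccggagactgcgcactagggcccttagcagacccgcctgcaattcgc
Gpx1: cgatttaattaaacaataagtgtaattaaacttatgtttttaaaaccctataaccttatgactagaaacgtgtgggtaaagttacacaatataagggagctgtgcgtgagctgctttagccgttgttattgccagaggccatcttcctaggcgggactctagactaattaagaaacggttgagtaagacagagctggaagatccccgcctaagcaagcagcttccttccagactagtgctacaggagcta
Mgst3 had 2 GC boxes in this window and Gstk1 had 1, and Gpx1 had no match of the 3 motifs. Starts were listed for 30 of the 32 genes, in 41 windows that overlap for some genes. GC boxes were found in 43.9% of the windows and CCAAT boxes in 61.0%, where 32.7% and 33.8% of 32851 windows of the same length held them. Where the letters coincide, matches of both can share bases.

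The antioxidant response element core was found in 4 of 41 windows (9.76%), those of Gsta3, Gstm7, Mgst1 and Prdx1, against 10.2% of all windows. It is shown in capitals with 25 bases on each side for the 3 stretches outside their own gene's span, at chr1:21240439-21240497, plus strand, chr6:138140446-138140504, plus strand, and chr4:116685441-116685499, plus strand (GRCm38.p6), 2 of which lie in gene models of noncoding RNAs.
Gsta3: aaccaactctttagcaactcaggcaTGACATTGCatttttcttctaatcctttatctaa
Mgst1: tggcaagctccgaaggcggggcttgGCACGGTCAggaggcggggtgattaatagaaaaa
Prdx1: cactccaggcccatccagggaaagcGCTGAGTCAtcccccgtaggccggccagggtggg
The match began 121 bases before the start in Gsta3, and 56 and 133 bases before it, on the opposite strand, in Mgst1 and Prdx1. In Prdx1 it overlaps a match of the AP-1 core TGANTCA. These 3 genes differed by 1.04, 0.29 and 0.02 and none of them passed, while none of the windows of Mgst3, Gstm4, Gstk1 or Gpx1 held the core. A match is a description of letters and not evidence of binding. A window of 250 bases without a match does not speak for the rest of the gene, and control by NRF2 was not tested.

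Pooled over 7 related lists, genes around these enzymes did not lean up as the members did, though the lists differed. Of 106 measured genes, 3 rose and 4 fell by limma (6.6%, where 3.34% of all genes passed in either direction). Differences were above 0 in 54 of the 106, against 55.3% of all genes. By list this held for 11 of 14 glutathione and NADPH recycling genes and 13 of 20 thioredoxin and glutaredoxin genes. It held for 12 of 20 genes of NRF2 and its other targets and 5 of 15 of glutathione synthesis and breakdown. The rest were 4 of 12 superoxide and peroxide enzymes, 4 of 12 relatives and 5 of 13 selenoprotein production genes. Among 12 relatives outside the naming rule, Ptges, the microsomal prostaglandin E synthase that shares the fold of the Mgst proteins, rose and Hpgds, a glutathione transferase of the sigma class that makes prostaglandin D, fell.

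Ptges had levels of 8.30, 8.42, 8.22 and 8.13 in wild-type and 9.44, 9.07, 9.10 and 9.08 in transgenic arrays. Every transgenic array was above every wild-type array. It rose by 0.91 log2 units or 1.87-fold (8.27 ± 0.12 against 9.17 ± 0.18, SD, n = 4; limma adjusted p = 0.00645), and passed whichever array was removed and with the plate column as a block. With the plate row as a block the Ptges difference was 1.27, the same as in row G. That value rests on transgenic replicate 1, its highest array at 9.44, against wild-type replicates 3 and 4. Hpgds had 9.73, 9.67, 8.40 and 9.11 in wild-type and 7.15, 7.29, 7.71 and 7.26 in transgenic fat, with the lowest wild-type value in replicate 3, the array low in macrophage markers. It fell by 1.88 log2 units (SE 0.29, limma adjusted p = 0.0196), and the call was lost on removal of any of 5 arrays.

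Of 20 thioredoxin and glutaredoxin genes, Sesn2 rose and Srxn1 fell, where 2.07% of all genes rose and 1.27% fell. Srxn1, the sulfiredoxin that restores overoxidised peroxiredoxins, had 8.63, 8.58, 8.32 and 8.43 in wild-type and 7.85, 8.08, 8.01 and 7.77 in transgenic fat. All transgenic arrays were below the wild-type arrays, and it fell by 0.56 log2 units (SE 0.10, limma adjusted p = 0.0253). Sesn2, a stress-induced sestrin, had 8.69, 8.57, 8.79 and 8.42 against 9.11, 9.13, 9.30 and 9.31, and rose by 0.59 log2 units (SE 0.09, limma adjusted p = 0.0202). The call was lost on removal of any of 6 arrays for Srxn1 and of any of 5 for Sesn2. Txnrd1, the reductase of cytosolic thioredoxin, differed by -0.25 with groups apart (limma adjusted p = 0.0649). Glrx2 and Txnip differed by 0.25 and 0.24, also with groups apart (limma adjusted p = 0.0827 and 0.153). At an unadjusted p of 0.05, 5 genes of this list were higher and 3 lower, where 11.2% and 9.42% of all genes were.

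Of 20 genes of NRF2 and its other targets, 1 fell and none rose by limma, with 1 higher and 3 lower at an unadjusted p of 0.05. Of all genes, 2.07% rose and 1.27% fell by limma, and 11.2% were higher and 9.42% lower unadjusted. A list of 20 genes gives too few calls to set its shares against these. The gene that fell was Hmox1, the heme oxygenase that macrophages also express, with 9.78, 9.77, 9.48 and 9.57 in wild-type and 8.91, 8.80, 8.89 and 8.88 in transgenic arrays. The transgenic values were tight and all below the wild-type values. Hmox1 fell by 0.78 log2 units (SE 0.08, limma adjusted p = 0.00535), and passed whichever array was removed; with the plate row as a block it differed by -0.61 (limma adjusted p = 0.0818). Nqo1, a standard NRF2 target, differed by 0.12 (limma adjusted p = 0.611). Its means of 5.94 in wild-type and 6.05 in transgenic fat lay below the median gene. Nfe2l2, the gene of NRF2, differed by -0.20 (limma adjusted p = 0.164).

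Of 12 measured superoxide and peroxide enzymes outside the families, Sod1, the cytosolic superoxide dismutase, rose from 11.94 ± 0.06 to 12.21 ± 0.04 (SD, n = 4; log2 0.27, SE 0.05, limma adjusted p = 0.0384). In single arrays wild-type levels were 11.94, 11.86, 12.01 and 11.96, and all 4 transgenic levels (12.22, 12.25, 12.16 and 12.22) lay above them. Catalase, Cat, differed by 0.10 (95% interval -0.04 to 0.25). At an unadjusted p of 0.05, 1 gene of this list was higher and 3 were lower, and 8 of 12 differences were below 0. Of all genes, 11.2% were higher and 9.42% lower unadjusted, 2.07% rose and 1.27% fell by limma, and 55.3% of differences were above 0. The 3 lower genes, named after their values were seen, were mitochondrial Sod2 (-0.21, groups apart, limma adjusted p = 0.0831) and the phagocyte oxidase subunits Cyba (-0.61, groups apart, limma adjusted p = 0.0871) and Cybb (-0.62, limma adjusted p = 0.105). Of 15 measured genes of glutathione synthesis and breakdown, Ggt5, which cleaves extracellular glutathione conjugates, read 8.69, 8.60, 8.36 and 8.49 in wild-type and 8.09, 8.08, 8.27 and 7.94 in transgenic fat, with groups apart. It fell by 0.44 log2 units (SE 0.09, limma adjusted p = 0.0486). The rate-limiting synthesis genes Gclc and Gclm differed by 0.09 and -0.15 (limma adjusted p = 0.563 and 0.261). Removal of any of 7 arrays ended the Sod1 call and of any of 6 the Ggt5 call. Sod1 differed by 0.24 on its probe set of highest variance (limma adjusted p = 0.137) and missed the threshold after a second quantile normalisation (limma adjusted p = 0.0527), as Ggt5 did after centring on array medians (limma adjusted p = 0.0604). With the plate row or column as a block, Sod1, Ggt5, Srxn1, Sesn2 and Hpgds did not pass.

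**Figure D5:**
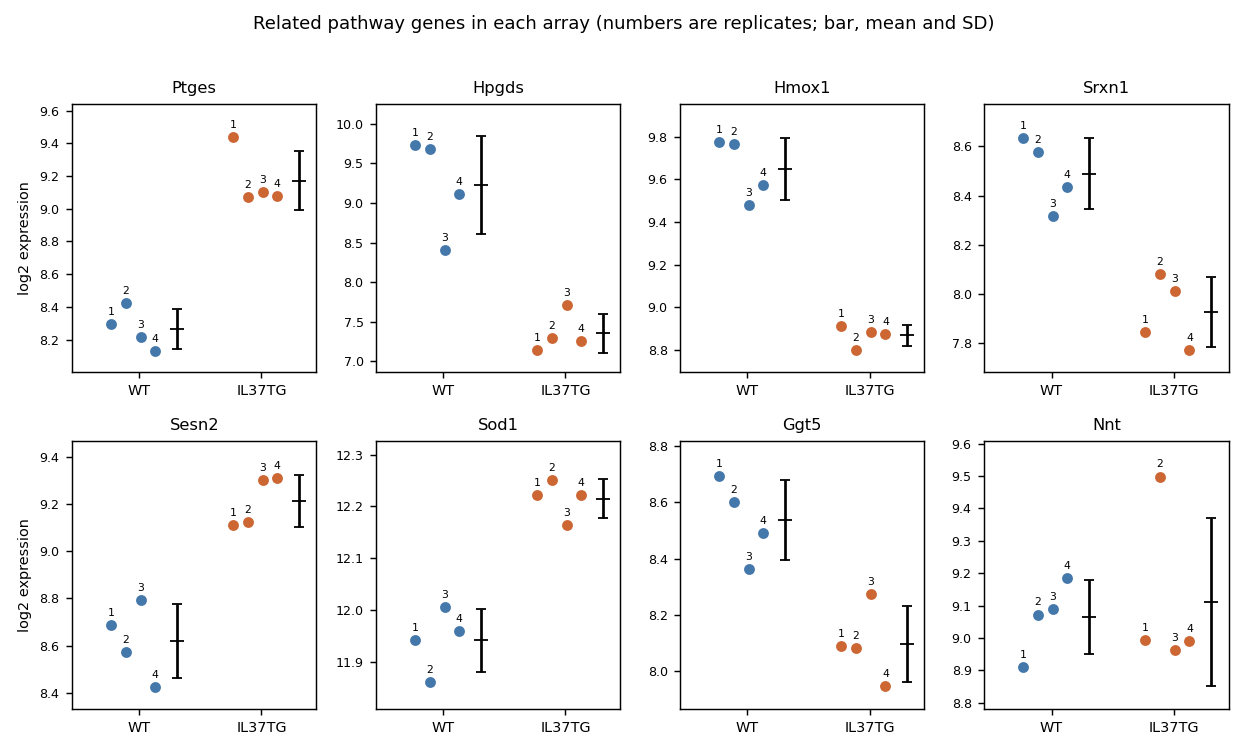
Log2 expression in each array (numbers are replicates) of 8 genes around the glutathione and peroxiredoxin families, with group mean and SD. Ptges, Sesn2 and Sod1 are higher in every transgenic array and Hpgds, Hmox1, Srxn1 and Ggt5 lower, while Nnt overlaps.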

How the data were processed

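8 arrays of biotin-labelled whole-transcript cDNA, 4 per group, were analysed. The deposited values are log2 expression per probe set; the submitters' processing notes name RMA, which corrects background, equalises arrays by quantiles and summarises probes, and which would hide a change common to most genes. The sources used here do not give its settings. Of 35556 probe sets, 21218 had 1 symbol, 1881 several and 12457 none; 21185 were named through the Entrez identifier (GRCm38.p6 table).

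The 2 groups were fitted by limma (version 3.58.1, R 4.3.3; lmFit and eBayes, no filter, threshold 0.05 after Benjamini-Hochberg adjustment over 18820 genes); intervals are those of the fit. The number of arrays limits the precision. Members and lists were chosen with earlier results of these data known. Values per array were given for members past the threshold, for the member with the lowest p and that with the highest mean in each subfamily. Of the lists, passing genes (at most 4 a list, otherwise the 1 with the lowest p) and Nnt were named; other genes named were chosen for their role or after their values were seen. Alternatives were a second normalisation, centring, filters on dim genes, other probe sets, other priors and weights, blocks and arrays left out. On simulated data for this comparison (18820 genes), the share of changed genes called was 74%, 90%, 98% and 98% at changes of 0.5, 1, 2 and 3 log2 units. In that simulation 12 unchanged genes were also called. Its noise was independent for each gene and array, without shifts that many genes of an array share. These shares therefore need not hold for the real arrays. 2 marker lists and 1 alternative were added after seeing the data. Promoters are RefSeq's. Figures used matplotlib 3.10.9 in Python 3.11.15.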

Additional observations from a re-analysis of the deposited data

Results flagged for a closer look

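In 11 of 84 groups of 4 arrays examined (13.1%, where chance gives about 1 in 20), 1 array lay far from the other 3, as log2 levels. Transgenic replicate 4 stood high for Gsto2 (6.95, others 5.21 to 5.44) and for the dim Gpx6 (3.78, others 3.41 to 3.47). Wild-type replicate 3 stood high for Gstk1 (11.14, others 10.97 to 11.00) and low for Gpx8 (9.42, others 9.64 to 9.69). Transgenic replicate 3 stood high for Mgst3 (10.06, others 9.87 to 9.90) and Gstm3 (7.82, others 7.61 to 7.65). Transgenic replicate 2 stood high for Prdx1 (11.52, others 11.25 to 11.27) and Nnt (9.50, others 8.96 to 8.99). Transgenic replicate 1 stood high for Gstm6 (7.59, others 7.26 to 7.28) and Ptges (9.44, others 9.07 to 9.10), and wild-type replicate 2 for H6pd (10.61, others 10.50 to 10.52).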

How the results depend on the processing

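Mgst3 and Gstm4 passed under all 8 alternatives that kept the 8 arrays without a block, and Gstk1 and Gpx1 under 7 of them. No alternative made a member lower past the threshold. With the genes at or above the 25th percentile 7 of 29 members were higher, where 6.16% of all genes tested passed in either direction. With those at or above the median gene 7 of 26 members were higher, where 13.8% passed. Array weights gave 8 of 32 members higher, where 6.71% of all genes passed in either direction. The probe set of highest variance gave 2 of 32 higher, where 3.25% passed in either direction, against 3.34% of all genes in the main fit. With the plate row as a block 0 members were higher, and with the plate column 0, where 0.372% and 0.383% of all genes passed. Leaving out 1 array gave 0 to 8 members higher, 50 to 520 genes higher and 32 to 668 lower, 1 to 4 pathway genes higher and 1 to 9 lower.

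Of all genes, 741 were higher and 554 lower at or above the median gene, 724 and 539 with array weights, 10 and 60 with the row block, and 44 and 28 with the column block, against 390 and 239. Without wild-type replicate 3 and transgenic replicate 4 together 491 genes and 8 pathway genes were lower. Without wild-type replicates 3 and 4 together (added after the data were seen) 553 genes and 9 pathway genes were lower. Of the pathway genes, 5 were higher and 11 lower at or above the median gene, 8 were lower with array weights, 1 higher and 0 lower with the row block, and 1 higher and 1 lower with the column block.

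The labels do not say whether replicate numbers pair the arrays. Deviations of same-numbered arrays from their group means correlated at 0.09, 0.10, 0.09 and 0.06 across genes, and not every array correlated best with its own number. With so few arrays, these values cannot decide whether same-numbered arrays shared a litter, day or batch. With the replicate block 40 genes were higher and 53 lower, 0 members higher, and 1 pathway gene higher and 1 lower.

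Sign changes were among genes that did not pass. With the row block they were Gpx3 (-0.10), Gstm6 (-0.22), Gstt4 (-0.36), Prdx1 (-0.033) and Nnt (-0.14), and with a second quantile normalisation Gpx5 (-0.0063). Leaving out 1 array gave -0.030 to 0.064 for Gpx5, -0.026 to 0.17 for Gpx8, -0.19 to 0.58 for Gstm6, -0.044 to 0.046 for Prdx1, -0.037 to 0.12 for Prdx4 and -0.082 to 0.097 for Nnt. With wild-type replicate 3 and transgenic replicate 4 both left out, Gpx5 was -0.019 and Gpx6 -0.014. With wild-type replicates 3 and 4 left out, Gpx5 was -0.060, Gpx8 -0.026, Prdx4 -0.045 and Gstm7 0.28. The cause of these changes was not tested.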

Other observations

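Of 14 measured genes of glutathione and NADPH recycling, none passed by limma, with 1 higher and 0 lower at an unadjusted p of 0.05; of all genes 3.34% passed, and 11.2% were higher and 9.42% lower unadjusted, so that few calls would stand in any list of this length. That gene was H6pd, the hexose-6-phosphate dehydrogenase of the reticulum, which read 10.52, 10.61, 10.51 and 10.50 in wild-type and 10.88, 10.68, 11.09 and 10.79 in transgenic fat (difference 0.32, limma adjusted p = 0.0877). Gsr, the glutathione reductase, differed by -0.03 (95% interval -0.23 to 0.16). Of 13 genes of selenoprotein production none passed by limma, with 1 higher and 1 lower unadjusted, again beside those shares of all genes. Sephs1, a homologue of selenophosphate synthetase, read 8.75, 8.76, 8.91 and 8.80 in wild-type and 8.42, 8.58, 8.56 and 8.33 in transgenic fat, with groups apart (difference -0.33, limma adjusted p = 0.0513).

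Nnt, the mitochondrial transhydrogenase that makes NADPH, carries a deletion in some C57BL/6 substrains. Its levels were 8.91, 9.07, 9.09 and 9.18 in wild-type and 8.99, 9.50, 8.96 and 8.99 in transgenic fat, a difference of 0.05 (95% interval -0.25 to 0.34). Where its probes lie relative to that deletion is not known here, so these levels do not check the substrain.

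4 members had a second probe set. The kept and second sets differed between groups by 0.26 and 0.28 for Gpx4, 0.17 and 0.27 for Gstm3, 0.02 and 0.10 for Prdx1, and 0.16 and 0.06 for Prdx2, so that the signs matched in all 4 genes.

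Other marker lists overlapped between groups. The mean of 9 mesothelial genes was 7.43 to 8.67 in wild-type and 7.98 to 8.46 in transgenic arrays, that of 7 endothelial genes 10.12 to 10.31 and 10.21 to 10.44, and that of 8 progenitor and fibroblast genes 9.67 to 9.91 and 9.69 to 10.07. Of the 9 mesothelial genes 7 had differences above 0, against 55.3% of all genes. At an unadjusted p of 0.05, 2 were higher and 0 lower, where 11.2% and 9.42% of all genes were. The 2 genes below 0, Krt8 and Krt18, were highest in wild-type replicates 3 and 4, the arrays high in duct and cilia genes. The mean of 3 measured red blood cell genes was 5.70 to 6.30 in wild-type and 6.08 to 7.05 in transgenic arrays, highest in transgenic replicate 4.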
